A study of Mus musculus with 12 samples.

Results

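The expression of 10 genes for fatty acid uptake and binding was examined in the left ventricle of mice lacking Gch1 in cardiomyocytes. The genes are Lpl, Gpihbp1, Angptl4, Vldlr, Cd36, Slc27a1, Slc27a4, Fabp3, Fabp4 and Fabp5. They were listed by symbol for their place in lipoprotein hydrolysis, fatty acid transport and cytosolic binding, with earlier results of these data known, and are 10 of the 26921 genes in the deposited count table. RNA-seq of left ventricular tissue was available for 6 WT and 6 cmGch1 KO mice, all 16 weeks old. WT mice carried floxed Gch1 alleles on both chromosomes (Gch1 flox/flox). The cmGch1 KO mice carried the same floxed alleles together with a heterozygous Cre transgene driven in cardiomyocytes by the α-MHC promoter. Endothelial and other cells of the ventricle therefore kept Gch1, and since the WT mice carried no Cre, the transgene and the deletion cannot be told apart here. Gch1 encodes GTP cyclohydrolase 1, the enzyme that starts the synthesis of tetrahydrobiopterin, a cofactor of the nitric oxide synthases. Values are given as cpm, the usual library-scaled count of a gene, scaled here to the total of the tested genes and between libraries by the TMM method.

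The heart takes most of its fuel from fatty acids, which reach it either bound to albumin or as triglyceride in lipoproteins. Lipoprotein lipase, made by cardiomyocytes, is carried by GPIHBP1 to the luminal face of the capillary, where it releases fatty acids from triglyceride, and ANGPTL4 inhibits it. The fatty acids cross the endothelium and the cell membrane with the help of CD36 and the FATP proteins, and in the cytosol they are held by FABP proteins on their way to mitochondria, lipid droplets and the nuclear receptors of the PPAR family.

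The upstream sequences are shown for 3 genes. They are Slc27a1 and Fabp3, which gave the smallest adjusted p-values among the 10 in a fit described later, and Cd36, a gene known to respond to PPAR receptors. Each is the 250 bases before a RefSeq transcription start on GRCm38.p6, written in the direction of transcription. Capitals mark matches to the hexamer AGGTCA, the core of nuclear receptor sites, or to GGGCGG, the core of Sp1 sites, on either strand. The Slc27a1 window is chr8:71568621-71568870 on the plus strand and is the first of 3 windows of this gene. The Fabp3 window is chr4:130308488-130308737 on the plus strand and reaches into the gene model used here, which starts at 130308595. The Cd36 window is chr5:17835897-17836146 on the minus strand and lies inside the gene model used here, which spans 17781690 to 17888801.
Slc27a1: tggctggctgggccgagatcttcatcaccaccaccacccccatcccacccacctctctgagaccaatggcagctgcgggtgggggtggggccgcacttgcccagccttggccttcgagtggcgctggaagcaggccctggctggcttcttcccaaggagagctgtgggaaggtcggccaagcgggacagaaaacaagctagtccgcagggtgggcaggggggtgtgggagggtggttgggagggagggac
Fabp3: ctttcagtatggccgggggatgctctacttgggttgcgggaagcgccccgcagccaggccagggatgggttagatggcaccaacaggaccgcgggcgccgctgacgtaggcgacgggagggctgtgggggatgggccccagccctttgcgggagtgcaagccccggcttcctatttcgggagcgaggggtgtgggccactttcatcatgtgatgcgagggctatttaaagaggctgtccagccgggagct
Cd36: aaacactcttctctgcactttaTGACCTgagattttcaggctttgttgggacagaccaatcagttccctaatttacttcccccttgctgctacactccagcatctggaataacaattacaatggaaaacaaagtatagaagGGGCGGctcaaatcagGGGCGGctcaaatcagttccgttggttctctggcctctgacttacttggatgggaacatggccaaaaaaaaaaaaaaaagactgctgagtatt
In the Cd36 window the hexamer AGGTCA lies on the opposite strand, starting 228 bases before the transcription start, and GGGCGG occurs at 109 and 93 bases. Over 32851 promoter windows of the same length, 14.0% hold AGGTCA and 32.7% hold GGGCGG. Also searched on both strands were 2 copies of AGGTCA with 1 base between them (0.0335% of windows), AGGTCA preceded by TCA (0.387%), TATAAA (12.4%) and CACGTG (6.02%). Every window with AGGTCA preceded by TCA is also counted for AGGTCA. Sequences were present for 5 of the 10 genes, Slc27a4 and Vldlr being the others, in 8 windows, and none held the paired AGGTCA. In the first Slc27a1 window and in the Fabp3 window none of these motifs occurred, which says only that these letters are not there. The other Slc27a1 windows, not shown, did hold some. In the second, GGGCGG lies 139 bases before its start. In the third, GGGCGG lies at 159, 48 and 17 bases and CACGTG at 202 bases.

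WT libraries held 22356463 to 37917806 counts, and those of cmGch1 KO 19921398 to 35480715. Gch1 itself was between 9.32 and 12.2 cpm in the WT libraries and between 3.94 and 6.35 cpm in the others, with no overlap. The cmGch1 KO replicates 2 and 3 stood apart from the rest. They held Xist, the RNA of the inactive X chromosome, at 87.1 and 99.6 cpm and had a count of 0 for each of Uty, Kdm5d, Eif2s3y and Ddx3y, all Y-linked, which allows up to 0.140 and 0.130 cpm for each. The other 10 libraries had Xist at 0.235 cpm or less and a Y-linked sum of 168 to 193 cpm. The labels give no sex. Mitochondrial genes took 14.9% and 16.1% of the counts in these libraries and 18.3% to 22.9% in the others. Since no WT library was like them, each gene's fold change and each ratio is also given without them.

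All 10 genes passed the minimum of 3 cpm in at least 6 libraries, so none was lost to the filter. Their lowest count in any library was 93, for Angptl4, and Lpl held between 92551 and 206867 counts. None of the 10 genes was called between the genotypes at an FDR of 0.05 (quasi-likelihood test of edgeR, Benjamini-Hochberg adjustment over 11225 genes). Over all tested genes 0.445% were called lower and 0.677% higher in cmGch1 KO. At an unadjusted p under 0.05 only Slc27a1 was lower and none was higher, where 4.51% and 7.01% of all tested genes were. In each of the 10 genes the libraries of the genotypes overlapped, while 1.87% of all tested genes had groups that did not. The mean was lower in cmGch1 KO for 8 of the 10 genes and higher for Slc27a4 and Angptl4, beside 5984 lower among the 11225 genes. The median log2 fold change was -0.16 for the 10 genes and -0.01 for all tested genes.

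**Figure D1:**
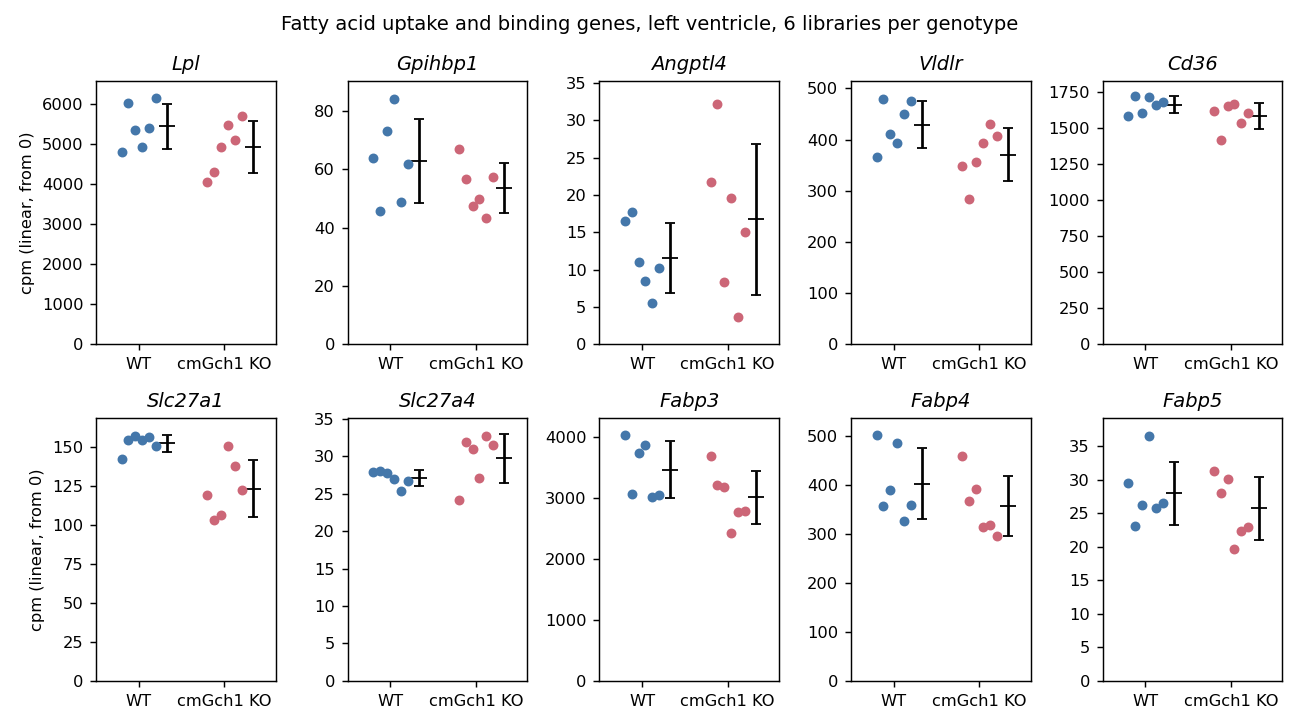
Expression of each gene in cpm on a linear axis from 0, with 1 point per library (blue WT, red cmGch1 KO, 6 each) and the mean ± SD beside them. The groups overlap in all 10 panels; in the Slc27a1 panel 5 of the 6 cmGch1 KO points lie below the lowest WT point at 142.5 cpm.

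To compare levels between genes, cpm was divided by the exon length of each gene in kilobases. In WT hearts Fabp3 was the most abundant at 4204 cpm per kilobase, the rank of 13 among 11195 genes. Lpl followed at 520 cpm per kilobase and Cd36 at 463, ranks 71 and 86, and their WT libraries overlapped. Fabp4, at 89.7 cpm per kilobase, and Vldlr, at 42.6, lay between these and the pair of Slc27a1 at 26.2 and Gpihbp1 at 24.6, which did not differ beyond their spread. Fabp5 at 7.83, Slc27a4 at 6.14 and Angptl4 at 3.27 cpm per kilobase were lowest, and Angptl4 ranked 7112. All other neighbours in this order had WT libraries that did not overlap. Dividing by the median length of the coding transcripts kept the order and moved the levels, for example to 1324 ± 135 for Lpl, 617 ± 21.4 for Cd36 and 450 ± 81.4 for Fabp4 (SD, n = 6, cpm per kilobase), so that Lpl and Cd36 no longer overlapped.

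The first step in the path is hydrolysis at the capillary wall. Lpl (ENSMUSG00000015568, chromosome 8, 68880491 to 68907448, plus strand) encodes the lipase. Its lowest, median and highest values were 4799, 5385 and 6164 cpm in WT hearts, against 4051, 5020 and 5715 cpm in cmGch1 KO hearts. The cmGch1 KO replicates 1 and 2 lay below all WT libraries and the other 4 lay within their range. The means were 5447 ± 557 and 4930 ± 649 cpm (SD, n = 6), with a log2 fold change of -0.14 (standard error 0.10, 95% confidence interval -0.36 to 0.07, adjusted p = 0.670 from edgeR). Without cmGch1 KO replicates 2 and 3 the log2 fold change was -0.10.

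Gpihbp1 (ENSMUSG00000022579, chromosome 15, 75596628 to 75599481, plus strand) encodes the endothelial protein that binds and anchors the lipase. It ranged from 45.5 to 83.9 cpm in WT hearts, with a median of 62.7 cpm, and from 43.3 to 67.1 cpm in cmGch1 KO with a median of 53.2 cpm. The coefficient of variation was 23.1% in WT, and the WT libraries spanned nearly the whole cmGch1 KO range, cmGch1 KO replicate 5 alone lying below them. The log2 fold change was -0.23 (standard error 0.15, interval -0.54 to 0.09, adjusted p = 0.629 from edgeR), and it was -0.21 without cmGch1 KO replicates 2 and 3.

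Angptl4 (ENSMUSG00000002289, chromosome 17, 33773750 to 33781830, minus strand) encodes the secreted inhibitor of the lipase, whose gene is known to be switched on by fasting and by PPAR receptors. It was the most variable of the 10, at 5.46, 10.6 and 17.7 cpm (lowest, median and highest) in WT hearts, against 3.64, 17.3 and 32.2 cpm in cmGch1 KO hearts. Both the lowest and the highest value of all 12 libraries came from cmGch1 KO hearts, replicates 5 and 2. The coefficient of variation was 40.8% in WT and 60.7% in cmGch1 KO, and the log2 fold change of 0.53 had an interval from -0.35 to 1.40 (standard error 0.41, adjusted p = 0.718 from edgeR). Leaving out 1 library at a time moved it between 0.23 and 0.74, the lowest without cmGch1 KO replicate 2. Without cmGch1 KO replicates 2 and 3 it was 0.37.

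Ratios within a library compare these partners free of the scaling between libraries. They are not free of the difference between libraries by transcript length described later. The log2 ratio of Angptl4 to Lpl was -8.97 ± 0.63 in WT and -8.49 ± 1.21 in cmGch1 KO (SD, n = 6), a difference of 0.49 (exact permutation test, two-sided, p = 0.403, adjusted p over the 3 ratios = 0.797). The log2 ratio of Gpihbp1 to Lpl was -6.46 ± 0.44 and -6.53 ± 0.37, a difference of -0.06 (exact permutation p = 0.797, adjusted p = 0.797). Neither difference exceeded the spread between libraries, and the latter turned its sign when WT replicate 4 was left out (0.0556) or cmGch1 KO replicate 5 (0.0088). Without cmGch1 KO replicates 2 and 3 the differences were 0.31 for Angptl4 to Lpl and -0.0888 for Gpihbp1 to Lpl.

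Vldlr (ENSMUSG00000024924, chromosome 19, 27216484 to 27254231, plus strand) encodes the very low density lipoprotein receptor, which binds triglyceride-rich particles. WT hearts held 366, 430 and 480 cpm (lowest, median and highest), against 284, 375 and 431 cpm in cmGch1 KO hearts. Here cmGch1 KO replicates 1, 2 and 3 lay below every WT library, with replicate 2 the lowest, and the other 3 were inside the WT range. The log2 fold change was -0.21 (standard error 0.10, interval -0.43 to 0.00, adjusted p = 0.450 from edgeR). It was -0.12 without cmGch1 KO replicates 2 and 3 (standard error 0.09).

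Next come the genes for passage through the membrane. Cd36 (ENSMUSG00000002944, chromosome 5, 17781690 to 17888801, minus strand) encodes the main fatty acid translocase of heart and capillary. It was the steadiest of the 10, with a coefficient of variation of 3.47% in WT and 5.79% in cmGch1 KO. Its lowest, median and highest values were 1583, 1671 and 1725 cpm in WT hearts, against 1421, 1612 and 1669 cpm in cmGch1 KO hearts, where replicates 2 and 5 lay below the WT range. The log2 fold change was -0.07 (standard error 0.06, interval -0.20 to 0.06, adjusted p = 0.756 from edgeR), or -0.05 without cmGch1 KO replicates 2 and 3. With scaling by library size alone its direction turned, to 0.0051.

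Slc27a1 (ENSMUSG00000031808, chromosome 8, 71568882 to 71587302, plus strand) encodes FATP1, a membrane protein that couples fatty acid uptake to acyl-CoA formation. The 6 WT libraries were close together, at 142.5, 154.5, 157.0, 154.4, 156.9 and 150.8 cpm for replicates 1 to 6. The cmGch1 KO libraries were at 119.4, 103.2, 106.4, 150.9, 137.8 and 122.3 cpm in the same order. Of these, 5 lay below every WT library, replicates 2 and 3 were the lowest, and replicate 4 lay inside the WT range. The means were 153 ± 5.46 and 123 ± 18.3 cpm (SD, n = 6), and the coefficient of variation was 3.58% in WT and 14.9% in cmGch1 KO. The log2 fold change was -0.31 (standard error 0.09, interval -0.50 to -0.12), and its adjusted p of 0.132 from edgeR missed the threshold. An exact permutation test of the mean cpm gave p = 0.00649 (two-sided), which is not adjusted for the 10 genes examined. The same permutation test on each of the other genes gave p from 0.0649 (Vldlr) to 0.444 (Fabp5).

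The Slc27a1 value depended on which libraries and which test were used. Its log2 fold change was -0.21 without cmGch1 KO replicates 2 and 3 (adjusted p = 0.537, edgeR) and also -0.21 with sex-linked expression as a covariate (adjusted p = 0.434). It was -0.37 without cmGch1 KO replicate 4, where it passed the threshold (adjusted p = 0.0408). It also passed in the Wald test of DESeq2 (adjusted p = 0.0315), the only one of the 10 genes to do so, where 1.38% of all tested genes were called lower. Over 24 alternatives the adjusted p lay between 0.0287 and 0.537 and the direction was lower in each. Across the 12 libraries, after removing the genotype means, Slc27a1 followed the mitochondrial share of the counts with r = 0.86, and the lowest shares were those of cmGch1 KO replicates 2 and 3. The part of this share, and of what else sets these libraries apart, in the Slc27a1 values was not tested.

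Slc27a4 (ENSMUSG00000059316, chromosome 2, 29802634 to 29817522, plus strand) encodes FATP4, a second member of that family. It ranged from 25.3 to 28.04 cpm in WT hearts, with a median of 27.4 cpm, and from 24.2 to 32.7 cpm in cmGch1 KO with a median of 31.2 cpm. In cmGch1 KO replicates 2, 3, 5 and 6 it lay above every WT library and in replicate 1 below every WT library. Its log2 fold change was 0.13 (standard error 0.08, interval -0.04 to 0.30, adjusted p = 0.586 from edgeR). Leaving out cmGch1 KO replicates 2 and 3 gave 0.09.

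The cytosolic binding proteins hold fatty acids in solution inside the cell. Fabp3 (ENSMUSG00000028773, chromosome 4, 130308595 to 130315463, plus strand) is the form of heart muscle. Its lowest, median and highest values were 3014, 3401 and 4028 cpm in WT hearts, against 2427, 2980 and 3681 cpm in cmGch1 KO hearts. The cmGch1 KO replicates 4, 5 and 6 lay below every WT library, and the other 3 were inside the WT range. The means were 3460 ± 464 and 3007 ± 439 cpm (SD, n = 6), with a log2 fold change of -0.20 (standard error 0.11, interval -0.44 to 0.04, adjusted p = 0.540 from edgeR). Leaving out cmGch1 KO replicates 2 and 3 gave -0.25. Its processed pseudogene Fabp3-ps1, 99.3% identical over 402 bases, held a count of 0.770% of that of Fabp3, and Zcchc17, whose exons overlap it on the opposite strand, 0.934%.

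Fabp4 (ENSMUSG00000062515, chromosome 3, 10204088 to 10208576, minus strand) is the form of fat cells, macrophages and the heart's capillary endothelium. WT hearts held 326, 374 and 501 cpm (lowest, median and highest), against 296, 344 and 459 cpm in cmGch1 KO hearts. In cmGch1 KO replicates 4, 5 and 6 it lay below every WT library, as Fabp3 did. Its log2 fold change was -0.17 (standard error 0.13, interval -0.45 to 0.11, adjusted p = 0.712 from edgeR), or -0.22 without cmGch1 KO replicates 2 and 3. The log2 ratio of Fabp4 to Fabp3 was -3.11 ± 0.11 in WT and -3.07 ± 0.10 in cmGch1 KO (SD, n = 6), a difference of 0.04 (exact permutation test, two-sided, p = 0.567, adjusted p = 0.797), or 0.0351 without cmGch1 KO replicates 2 and 3.

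Fabp5 (ENSMUSG00000027533, chromosome 3, 10012548 to 10016607, plus strand) is a widely expressed form, also made by endothelium. It ranged from 23.2 to 36.5 cpm in WT hearts, with a median of 26.4 cpm, and from 19.7 to 31.2 cpm in cmGch1 KO with a median of 25.5 cpm. Here too cmGch1 KO replicates 4, 5 and 6 lay below every WT library and the other 3 inside the WT range. Its log2 fold change was -0.12 (standard error 0.13, interval -0.40 to 0.16, adjusted p = 0.828 from edgeR), or -0.22 without cmGch1 KO replicates 2 and 3. The pseudogenes Gm6166 and Gm14328, 98.3% and 97.3% identical to it over 409 and 408 bases, held counts of 1.25% and 0.205% of its own.

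The genes fell into sets that varied together from library to library. Each r given here, or later as within genotypes, pools all 12 libraries, and none was taken in 1 genotype alone. After the genotype mean was removed from the log2 cpm of the 12 libraries, Fabp3 correlated with Fabp4 (r = 0.91) and Fabp5 (r = 0.84), and Fabp4 with Fabp5 (r = 0.84). Gpihbp1 lay with them, at r = 0.68 to Fabp3. Lpl and Vldlr formed the other set (r = 0.81), which ran against the first, with r = -0.86 between Fabp3 and Lpl and -0.74 between Fabp3 and Vldlr. Cd36 and Slc27a1 were nearer to Vldlr (r = 0.59 and 0.67) than to the FABP genes. Of the 45 pairs 17 were positive. All values come from the same 12 libraries and share their depth and scaling, so these are descriptions.

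**Figure D2:**
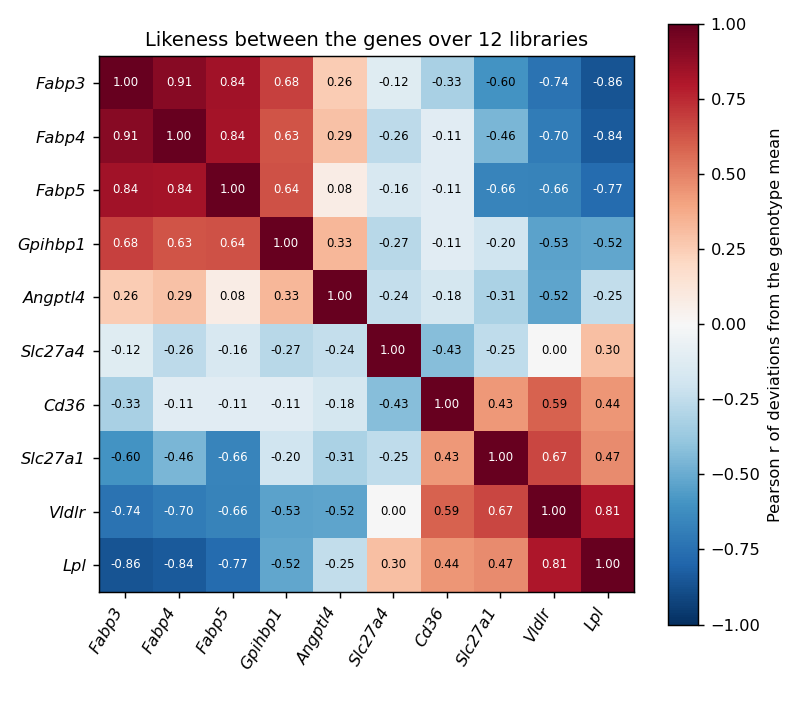
Pearson r of log2 cpm between the 10 genes over 12 libraries after removal of the genotype mean (colour from -1 to 1, value printed in each square). The FABP genes form a red block with r from 0.84 to 0.91, and blue squares with r from -0.66 to -0.86 join them to Lpl and Vldlr.

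By the same r, each of the 10 genes was also set beside all other tested genes. Fabp3 was near to Naa20 (r = 0.99), Fabp4 to Arpc4 (0.98) and S100a6 (0.97), and Fabp5 to Mif (0.95) and Rpl14-ps1 (0.94). Lpl was nearest to Tgoln1 (r = 0.98) and Arid4a (0.97), and Vldlr to Ankhd1 and Atp2c1 (0.98 each). Slc27a1 was nearest to Usp54 and Skiv2l (r = 0.95 each), Gpihbp1 to Gm6863 (0.96) and Hand2os1 (0.95), and Slc27a4 to Lrrc32 (0.90) and Fam111a (0.89). For Cd36 the nearest were Mtmr12 (r = 0.89) and ENSMUSG00000100370 (0.88), and for Angptl4 they were Tmem231 (0.95) and Dhrs13 (0.87). These are among the nearest of 11225 genes over 12 libraries, given as a description.

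These sets differ in transcript length. The median coding transcript is 823 bases for Fabp3, 896 for Fabp4, 987 for Fabp5 and 825 for Gpihbp1, and 4115 for Lpl and 3260 for Vldlr. It is 1685 for Slc27a1, 2692 for Cd36, 3308 for Angptl4 and 4054 for Slc27a4. Lengths near those of Lpl and Vldlr thus also occur outside their set. A contrast was therefore computed for each library after the data were seen. It is the mean centred log2 cpm of 1920 tested genes with coding transcripts under 1000 bases minus that of 1117 genes with coding transcripts over 5000 bases, the 10 genes left out. It ran from -0.29 to 0.31 in WT hearts and from -0.24 to 0.38 in the others, and the genotypes did not differ in it beyond their spread (exact permutation test, two-sided, p = 0.961). Within genotypes Fabp3 followed it with r = 0.93, Fabp4 with 0.92, Fabp5 with 0.82 and Gpihbp1 with 0.75, while Vldlr ran against it with r = -0.84 and Lpl with -0.92. In cmGch1 KO it was lowest in replicates 4, 5 and 6 (-0.18, -0.24 and -0.19), where the FABP genes lay below every WT library. It was lower still in WT replicates 2 and 6 (-0.29 and -0.26), where Fabp3 was at 3071 and 3051 cpm. In cmGch1 KO replicates 4, 5 and 6 Fabp3 was at 2427, 2768 and 2787 cpm. Slc27a1 (r = -0.46), Angptl4 (0.36), Cd36 (-0.30) and Slc27a4 (-0.28) followed it less closely. The median r was 0.64 over the short genes, -0.75 over the long genes and -0.02 over all tested genes. The short and long genes define the contrast, so the signs of their medians follow from its definition. The share of all tested genes with an r at least as far from 0, of either sign, was 6.51% for Fabp3. It was 8.84% for Lpl, 9.28% for Fabp4, 22.0% for Vldlr, 25.0% for Fabp5 and 33.1% for Gpihbp1. For Slc27a1, Angptl4, Cd36 and Slc27a4 it was 64.2% to 79.0%. By these lengths Fabp3, Fabp4, Fabp5 and Gpihbp1 fall among the short genes. Lpl and Vldlr lie between the classes, and so do Slc27a1, Cd36, Angptl4 and Slc27a4, which followed the contrast less closely. The log2 ratio of Gpihbp1 to Lpl was -7.05 in WT replicate 2, where the contrast was lowest. In cmGch1 KO replicate 1, where the contrast was highest, that ratio was -5.92. What makes the libraries differ in this contrast was not tested.

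**Figure D3:**
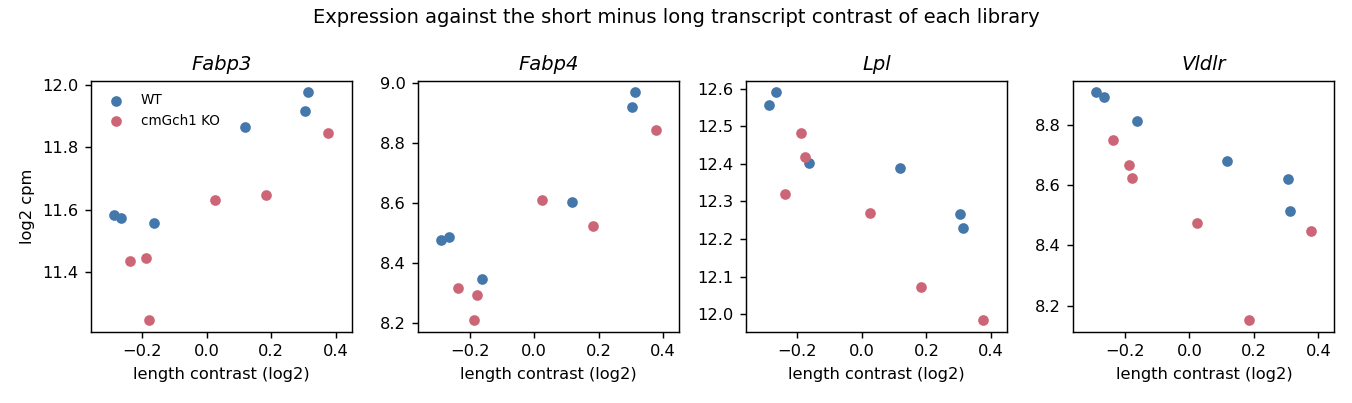
Log2 cpm of Fabp3, Fabp4, Lpl and Vldlr in each of the 12 libraries (blue WT, red cmGch1 KO) against the length contrast, the mean log2 cpm of short minus long transcripts in that library. Fabp3 and Fabp4 climb along the axis (r = 0.93 and 0.92 within genotypes) and Lpl and Vldlr descend (r = -0.92 and -0.84), with both genotypes spread over the whole range.

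With this contrast as a covariate the fold changes hardly moved but their errors shrank. The median standard error of the 10 genes was 65.2% of that without it, and over all tested genes 80.1%. In this fit Fabp3 (log2 fold change -0.20, standard error 0.05, adjusted p = 0.0363, edgeR) and Slc27a1 (-0.31, standard error 0.07, adjusted p = 0.0287) passed the threshold, so 2 of the 10 genes were called lower where 2.72% of all tested genes were. Vldlr (-0.22, adjusted p = 0.0503), Lpl (-0.15, adjusted p = 0.0994) and Fabp4 (-0.16, adjusted p = 0.121) did not pass. At an unadjusted p under 0.05 these 5 genes were lower, beside 10.8% of all tested genes. When cmGch1 KO replicates 2 and 3 were also left out none of the 10 genes was called, with -0.21 for Fabp3 (adjusted p = 0.0849) and -0.22 for Slc27a1 (adjusted p = 0.104). Over its 24 alternatives the adjusted p of Fabp3 lay between 0.0363 and 0.825.

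**Figure D4:**
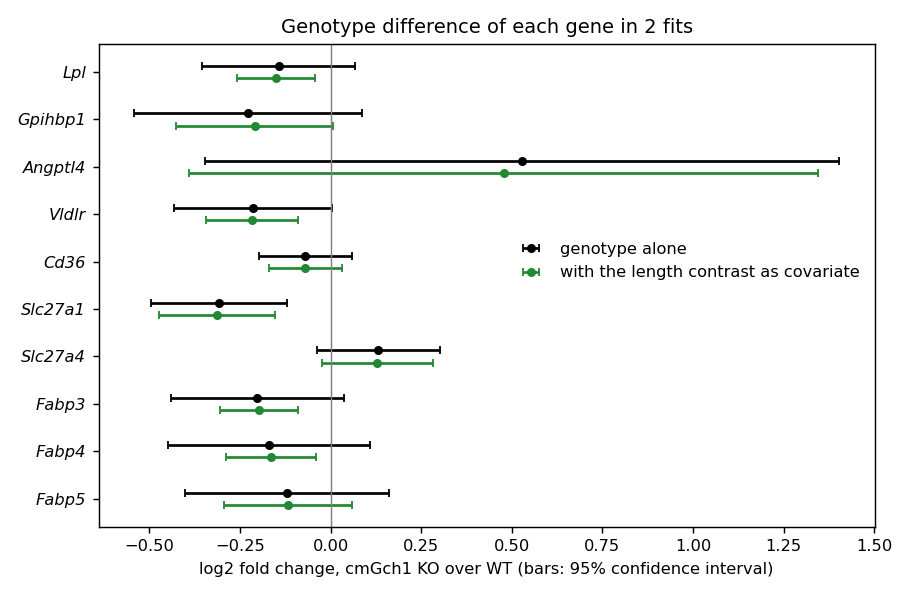
Log2 fold change of cmGch1 KO over WT for each gene with its 95% confidence interval, from the fit on genotype alone (black) and with the length contrast as a covariate (green). The intervals of Fabp3, Fabp4, Lpl and Vldlr narrow and move off 0 in the second fit, while Slc27a1 is below 0 in both and Angptl4 keeps an interval about as wide.

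The tissue holds several cell types, and in bulk RNA fewer cells of a type and less RNA per cell cannot be told apart. The summed level of 10 cardiomyocyte markers, led by Myh6, was 91802 to 96482 cpm in WT and 80912 to 86929 cpm in cmGch1 KO, with no overlap. Of these markers 9 of 10 were lower, with a median log2 fold change of -0.18, and none was called. Relative to this sum within each library, the mean log2 difference between the genotypes was -0.05 for Fabp3, 0.01 for Lpl, -0.06 for Vldlr, 0.09 for Cd36 and -0.16 for Slc27a1. It was 0.28 for Slc27a4, 0.50 for Angptl4, -0.01 for Fabp4, 0.03 for Fabp5 and -0.05 for Gpihbp1. The 12 endothelial markers, led by Aqp1, summed to 1421 to 1671 cpm in WT and 1338 to 1626 cpm in cmGch1 KO, 6 lower and 6 higher. Against that sum the log2 difference was -0.16 for Gpihbp1 and -0.11 for Fabp4. The part of the marker levels in these differences was not tested.

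Fabp4, Lpl, Cd36 and Angptl4 are also genes of fat cells, whose markers were nearly absent. The 8 adipocyte markers summed to 3.80 to 14.1 cpm in WT and 0.942 to 15.3 cpm in cmGch1 KO, with Car3 the most abundant, and none of the 8 reached the minimum for testing. Adipoq averaged 0.719 cpm in WT hearts, against 0.451 cpm in the others, and Plin1 0.744 and 0.716 cpm. The 8 macrophage markers, led by Lyz2, summed to 243 to 392 cpm in WT and 324 to 467 cpm in cmGch1 KO. All 8 were higher, 7 of them at an unadjusted p under 0.05, beside 7.01% of all tested genes, and none was called. Within genotypes Fabp4 and Fabp3 followed the mean log2 cpm of these 8 markers with r = 0.86 and 0.83. Lpl ran against it with r = -0.77. With the mean log2 cpm of the cardiomyocyte markers, r was 0.77 for Fabp4, 0.83 for Fabp3 and -0.51 for Lpl. All these r come from the same 12 libraries that differ in the length contrast. Fibroblast markers, led by Dcn, summed to 869 to 1147 cpm in WT and 978 to 1227 cpm in cmGch1 KO, all 8 higher with a median log2 fold change of 0.13 and none called. Blood markers, led by Hbb-bs, summed to 393 to 1153 cpm and 431 to 926 cpm, all 5 lower with a median of -0.39 and none called. Fabp3 followed the mean log2 cpm of the blood markers with r = 0.74 and Fabp4 with r = 0.63. Among 4 tested atrial markers 3 were higher and 1 lower, with a median log2 fold change of 0.14. Only Nppa, the atrial natriuretic peptide gene, was called (higher, log2 fold change 1.53, adjusted p = 0.0240, edgeR). The atrial sum was 74.7 to 548 cpm in WT and 247 to 746 cpm in cmGch1 KO. The part of these cells in the values of the 10 genes was not tested.

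Other genes of the same path, taken from fixed lists, gave no call in either direction. Of 19 further genes of lipoprotein hydrolysis and lipoprotein receptors 9 were tested, 3 lower and 6 higher, with a median log2 fold change of 0.02. The smallest p-values among them belonged to Sdc1, a heparan sulphate proteoglycan (log2 fold change 0.23, adjusted p = 0.547, edgeR), and Apoe, an apolipoprotein (0.18, adjusted p = 0.562). Of 19 genes of membrane uptake 13 were tested, 8 lower and 5 higher, with a median of -0.05. First by p were Cavin1, a coat protein of caveolae (302 ± 26.5 cpm in WT, 342 ± 31.2 cpm in cmGch1 KO, SD, n = 6, log2 fold change 0.18, adjusted p = 0.393 from edgeR), and Got2, a mitochondrial aminotransferase also found at the cell membrane (-0.11, adjusted p = 0.540). Of 14 genes of cytosolic lipid binding 5 were tested, with a median of 0.03, and among them was Acbd3, a Golgi protein with an acyl-CoA binding domain (0.10, adjusted p = 0.797, edgeR).

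Genes that respond to PPAR receptors in the heart had a median log2 fold change of -0.17 over 12 tested genes, with 9 lower and 3 higher. The 3 higher were Pdk4 (0.22), Ucp3 (0.09) and Plin2 (0.02). None was called, and 4 had an unadjusted p under 0.05, all in the lower direction, where 4.51% of all tested genes were. Acot1, a cytosolic acyl-CoA thioesterase, averaged 21.7 ± 4.33 cpm in WT hearts, against 13.1 ± 3.20 cpm in cmGch1 KO hearts (SD, n = 6), with a log2 fold change of -0.73 (adjusted p = 0.0644 from edgeR). Ech1, an enzyme of unsaturated fatty acid oxidation, had -0.35 (adjusted p = 0.247). The 9 genes of the PPAR receptors, their RXR partners and coactivators had a median of -0.16, with 8 lower, 2 of them at an unadjusted p under 0.05. These were Rxrg (-0.22, adjusted p = 0.428, edgeR) and Rxra (-0.17, adjusted p = 0.433), partners with which PPAR receptors bind DNA. The medians of both lists lay near that of the 10 uptake and binding genes, as did that of the cardiomyocyte markers (-0.18). The differences between the lists were not tested.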

How the data were processed

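Left ventricular RNA-seq of 6 WT and 6 cmGch1 KO mice was used, with groups and replicate numbers taken from the sample labels. Per the study's methods the unit of replication was the animal. The authors made paired-end dUTP libraries, aligned and counted with HISAT2, Picard and featureCounts, and the raw counts per Ensembl gene were deposited. The submitters' processing notes also name SAMtools and GRCm38. The annotation and strand setting of the counting are not given in the sources used here. The authors also deposited normalized values on a log2 scale, used in an alternative only. Columns that belong to no sample numbered 0.

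Symbols and lengths came from GENCODE M21, which matched 26582 of 26921 identifiers (98.7%). Counts were tested in edgeR 4.0.16 (R 4.3.3) by the quasi-likelihood test with TMM scaling, a minimum of 3 cpm to be exceeded in 6 or more libraries, and an FDR threshold of 0.05. Values in cpm use the TMM-scaled total of the tested genes, and log2 cpm a prior count of 2. Ratios, contrasts and Slc27a1 were compared by exact permutation over 924 assignments (smallest possible p = 0.00216). A count of 0 was taken to allow 3 counts, for counting error only. The fitting code was tested on simulated data.

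The members and lists were chosen with earlier results of these data known. Named genes are the 10 members, the called genes of each list or else its 2 with the lowest p, the 2 genes nearest to each member by r, the most abundant marker of each cell type, Gch1, Xist and 4 Y-linked genes. Some genes that this rule names are not reported here. Adipoq and Plin1 were added as defining markers, and Pdk4, Ucp3 and Plin2 as the PPAR-responsive genes that were higher. Within genotypes, the counts of any of 30 library pairs differed with a chi-square of at least 16.3 per degree of freedom, so none was a copy. Upstream sequences came from RefSeq (GRCm38.p6). Alternatives covered scaling, DESeq2 1.42.0, filters, limma 3.58.1 on the deposited log2 values, covariates and left-out libraries. The length contrast as a covariate, with and without cmGch1 KO replicates 2 and 3, and the coding transcript length were chosen after seeing the data.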

Additional observations from a re-analysis of the deposited data

How the results depend on the processing

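Of 240 fold changes of the 10 genes under 24 alternatives, 235 kept their direction and their side of the threshold. Exceptions were Cd36, which turned to 0.0051 with scaling by library size alone, Slc27a1 and Fabp3. With that scaling the median of the 10 genes was -0.0815 and that of all tested genes 0.066, and 116 genes were called higher, so directions are read against that shift. DESeq2's Wald test called 155 genes lower and 218 higher, 1 of the 10 genes among them. Sex-linked expression as a covariate gave 24 and 40, and leaving out cmGch1 KO replicates 2 and 3 gave 18 and 16. The length contrast as a covariate gave 305 and 293 genes, 2 of the 10 among the lower, and without cmGch1 KO replicates 2 and 3 as well 109 and 117. Leaving out 1 library at a time gave 28 to 96 lower genes, 44 to 111 higher genes and 0 to 1 of the 10 genes lower, and the log2 ratio of Gpihbp1 to Lpl lay between -0.18 and 0.0556. The cause was not tested.

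With the replicate number as a replicate block, 76 genes were lower and 112 higher and none of the 10 was called. Same-numbered libraries deviated together in some numbers only (r from -0.13 to 0.68), and 5 of 12 libraries were nearest to their own number, so the numbers were not taken to pair the animals. In the fit on genotype alone the 95% interval of every one of the 10 genes but Slc27a1 included 0, and Angptl4, with as few as 93 counts and the widest spread, is the least certain.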
